A study of Bos taurus with 18 samples.

Results

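Interferon tau was represented by 1 probe set of the 24016 tested on a bovine Affymetrix array, and by 1 of the 9155 genes named on it. It was the sole probe set whose only listed gene symbol starts with IFNT. The symbol listed is IFNT2, an interferon tau gene on bovine chromosome 8. The assembly ARS-UCD2.0 names 3 interferon tau genes (IFNT2, IFNT3 and IFN-tau-c1), all on that chromosome, and 0 probe sets are listed for the other two. Because these genes are close copies of each other, the signal of the probe set cannot be assigned to IFNT2 with certainty. It is called IFNT2 here, as the annotation names it.

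Interferon tau is a type I interferon that the trophectoderm, the outer epithelium of the blastocyst, secretes in ruminants before implantation. Acting through the type I interferon receptor of the uterine lining, it keeps the endometrium from releasing the prostaglandin pulses that would end the life of the corpus luteum, so that progesterone secretion goes on. It is therefore known as the signal of maternal recognition of pregnancy. Unlike most interferons it is not switched on by a virus, but by transcription factors of the trophectoderm such as ETS2, AP-1, DLX3 and CDX2.

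RNA came from blastocysts of mixed breed that were produced in vitro with sex-sorted semen and snap frozen on day 7 after insemination. Each array held RNA from a pool of 60 blastocysts of 1 sex sired by 1 bull. The 6 groups were female blastocysts of bulls 1, 2 and 3 and male blastocysts of bulls 1, 2 and 3, with 3 arrays each, 18 arrays in all. Each bull is a single sire, so a batch that went with a bull cannot be told apart from it. Female and male embryos came from differently sorted semen, and no label says if they shared a round of embryo production. An effect of the sorting, or of a batch that went with sex, cannot be told apart from sex. No label says if pools of 1 group stem from different rounds of embryo production. The p-values therefore set a difference between groups against the spread among such pools only, and that spread may be technical.

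The sex labels were checked with XIST, which is transcribed from the X chromosome that is silenced in females. Its log2 value lay between 8.87 and 9.57 on the 9 female arrays and between 5.93 and 7.28 on the 9 male arrays, with no overlap. Array medians ran from 5.33 to 5.49. On 4 arrays the values spread more widely around the average array than on the others, with a relative spread above 0.25: replicate 3 of the females of bull 1, replicate 2 of the males of bull 1, replicate 1 of the males of bull 2 and replicate 3 of the males of bull 3. Of the blastocyst markers, KRT18, a keratin of the trophectoderm, averaged 14.04 log2 and POU5F1, the pluripotency factor OCT4, averaged 11.93 log2. These were bright, but other markers were not: the trophectoderm marker PAG11 averaged 4.02 log2 and the inner cell mass marker SPP1 5.36 log2. With arrays, precision is limited by how many were run.

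IFNT2 was higher in female than in male blastocysts. The female arrays averaged 11.15 ± 0.21 log2 and the male arrays 10.56 ± 0.31 log2 (SD, n = 9 arrays each). Female values ran from 10.85 to 11.54 with a median of 11.11, and male values from 9.87 to 10.90 with a median of 10.64. The difference of 0.59 log2 corresponds to 1.5-fold, with a 95% confidence interval from 1.29-fold to 1.75-fold.

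In the blastocysts of bull 1, the 3 female arrays read 11.54, 11.11 and 11.24 log2, and the 3 male arrays read 10.66, 9.87 and 10.48 log2. In those of bull 2, the female arrays read 11.35, 10.85 and 11.12 log2, and the male arrays 10.74, 10.64 and 10.59 log2. In those of bull 3, the female arrays read 11.03, 11.07 and 10.999 log2, and the male arrays 10.90, 10.84 and 10.33 log2. Within each of the 3 bulls every female array was therefore brighter than every male array. Of all 24016 probe sets, 3.34% had females above males in this way in all 3 bulls. Probe sets with all 9 female arrays above all 9 male arrays are a part of these and were not counted apart. Across bulls the sexes overlapped by a single pair: replicate 2 of the females of bull 2 (10.85 log2) was below replicate 1 of the males of bull 3 (10.90 log2). The female array was the brighter in 80 of the 81 possible pairs of a female and a male array. From the dimmest to the brightest array, IFNT2 spanned 1.67 log2, or 3.18-fold.

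**Figure D1:**
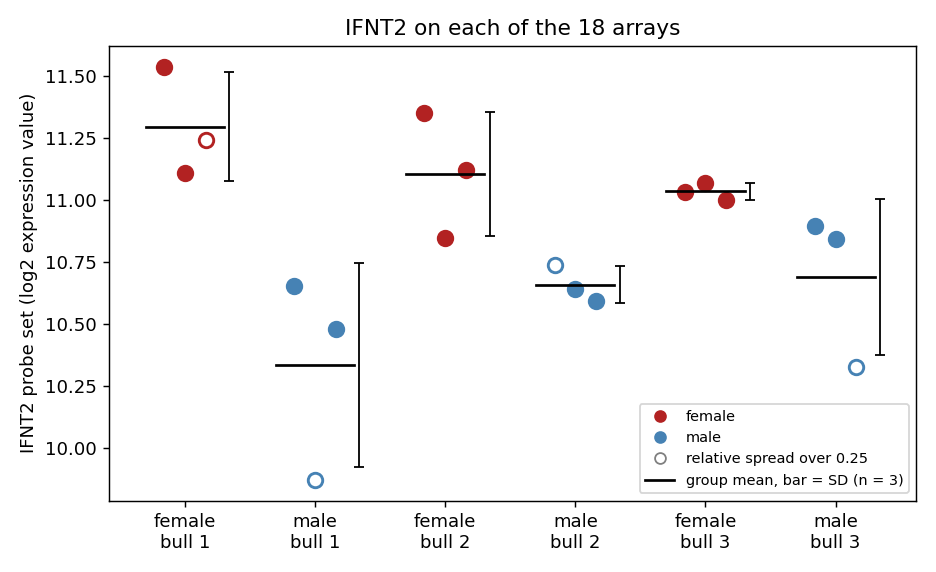
IFNT2 on each of the 18 arrays. The vertical axis gives the log2 value of the probe set, each point is 1 array, open points are the 4 arrays of wide spread, and the lines and bars are the mean and SD of the 3 arrays of a group. Within each bull all 3 female arrays lie above all 3 male arrays, and the lowest array, at 9.87, belongs to the males of bull 1.

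The sex difference, averaged over the bulls, had a standard error of 0.11 log2 and passed the test across all probe sets (limma, adjusted p = 0.000678). In that comparison 15.6% of probe sets passed, 8.12% with higher and 7.47% with lower values in females. An exact permutation of the sex labels within bulls gave p = 0.00025 (two-sided, 8000 regroupings), the smallest p this design allows. In whole embryos, fewer cells of a type and less RNA per cell cannot be told apart.

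The dimmest IFNT2 values came from arrays of wide spread. Replicate 2 of the males of bull 1 (9.87 log2) and replicate 3 of the males of bull 3 (10.33 log2) were the 2 lowest arrays, and 3 of the 4 arrays of wide spread held male RNA. Without those 4 arrays the female minus male difference was 0.47 log2, with adjusted p = 0.00142 (limma). An index of RNA integrity, the 5′ minus 3′ signal of 3 control transcripts, averaged -0.35 ± 0.25 log2 in females and -0.35 ± 0.46 log2 in males. It was not balanced within bulls: female minus male was -0.22, 0.01 and 0.22 log2 in bulls 1, 2 and 3. Its group means ran from -0.80 log2 in males of bull 3 to 0.01 log2 in males of bull 1. On the 2 lowest arrays the index was 0.45 log2 for the males of bull 1 and -1.27 log2 for the males of bull 3. With this index as a covariate the IFNT2 difference was 0.59 log2 (limma, adjusted p = 0.000934).

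Bull by bull, IFNT2 passed in bull 1 and not in bulls 2 and 3. In bull 1 the female arrays averaged 11.30 ± 0.22 log2 and the male arrays 10.34 ± 0.41 log2 (n = 3 each). This is 0.96 log2 or 1.95-fold, with adjusted p = 0.00449 in limma, where 2.74% of probe sets passed with higher values in females. In bull 2 the means were 11.11 ± 0.25 log2 for females and 10.66 ± 0.07 log2 for males. Their difference was 0.45 log2 with a confidence interval from 0.06 to 0.83 (limma, adjusted p = 0.25, where 2.57% of probe sets passed in that direction). In bull 3 the means were 11.03 ± 0.04 log2 for females and 10.69 ± 0.31 log2 for males. Their difference was 0.35 log2 with an interval from -0.04 to 0.73 (limma, adjusted p = 0.385, where 2.65% passed in that direction). Within a single bull the exact permutation test over 6 arrays gave p = 0.1 for each bull, the smallest it can give.

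**Figure D2:**
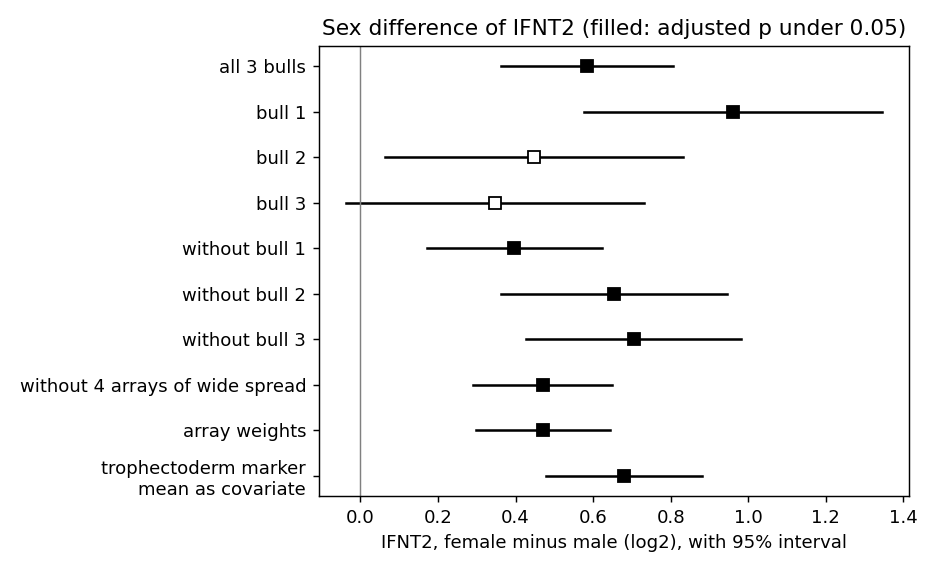
Female minus male difference of IFNT2. Points give the log2 difference and bars its 95% confidence interval, averaged over the bulls, for each bull, and averaged over the bulls in 6 alternative analyses. Filled points passed at an adjusted p under 0.05 in limma. The intervals of bulls 1, 2 and 3 overlap, at 0.96, 0.45 and 0.35 log2, and that of bull 3 includes 0.

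The sex difference was not shown to differ between the bulls after adjustment over all probe sets. The F test of the sex by bull interaction in limma gave F = 3.25, an unadjusted p of 0.0622 and an adjusted p of 1.00. In that comparison 0% of probe sets passed, with 656 at an unadjusted p under 0.05 in limma and 0 passing with 768 in an ordinary F test without moderation. The sex difference of bull 2 minus that of bull 1 was -0.51 log2, with an interval from -1.06 to 0.03. For bull 3 minus bull 1 the difference of differences was -0.62 log2, with an interval from -1.16 to -0.07. In limma its unadjusted p was 0.0285 and its adjusted p 1.00. Leaving out bull 1 altogether left a sex difference of 0.40 log2 (limma, adjusted p = 0.025).

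Between sires IFNT2 did not pass the test. Averaged over the sexes, bull 2 minus bull 1 was 0.07 log2, with an interval from -0.21 to 0.34 (limma, adjusted p = 0.829, with 1.52% of probe sets passing). Bull 3 minus bull 1 was 0.05 log2, with an interval from -0.23 to 0.32 (limma, adjusted p = 0.895, with 3.53% passing). Bull 3 minus bull 2 was -0.02 log2, with an interval from -0.29 to 0.25 (limma, adjusted p = 0.955, with 3.74% passing). Over the 3 pairs of sires the intervals span -0.29 to 0.34 log2.

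From highest to lowest, the group means ran from females of bull 1 through females of bulls 2 and 3 to males of bulls 3, 2 and 1. The bulls thus stood in opposite order in the 2 sexes. Among females, bull 3 minus bull 1 was -0.26 log2 (limma, adjusted p = 0.69, with 0.125% of probe sets passing). Among males, bull 3 minus bull 1 was 0.35 log2 (limma, adjusted p = 0.397, with 0.354% passing). The arrays of neighbouring groups in this order overlapped in every case but one, females of bull 3 and males of bull 3. An exact permutation of the bull labels gave p = 0.339 among females and p = 0.35 among males (1680 regroupings each), so the order within a sex was not shown to go beyond the spread of the pools.

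IFNT2 was among the bright probe sets of the array. Brightness depends on the affinity of the probes, so this is a rank of signal and not a transcript level. Averaged over all arrays it read 10.85 log2, above 96.7% of probe sets, and 785 were brighter. Its percentile on single arrays ran from 96.7 to 98.1 in females, with 454 to 781 brighter probe sets. In males the percentile ran from 92.4 to 96.9, with 742 to 1827 brighter probe sets.

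The sex difference of IFNT2 was large for so bright a probe set. Over the whole array 459 probe sets, or 1.91%, had a larger difference in either direction, 419 of them toward females. Of the 1950 probe sets that passed with higher values in females, whose median difference was 0.37 log2, 417 had a larger one. Among the 636 probe sets with a mean within 0.5 log2 of that of IFNT2, 6 had a larger difference toward females and 0 toward males. Of those 6 probe sets, 4 were X-linked. Of the 381 probe sets of chromosome 8, 42 passed with higher values in females and 6 had a larger difference than IFNT2. Beside this, 8.12% of all probe sets passed with higher values in females, and 11.5% of genes by their brightest probe set. Over all autosomes 166 of 12855 probe sets, or 1.29%, had a larger difference toward females.

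IFNT2 also varied more among pools of the same group than most probe sets of like brightness. Its residual SD over the 6 groups was 0.25 log2, while the median of those 636 probe sets was 0.10 log2, and 8 of them had a larger one. The spread was uneven. The SD of the 3 arrays was 0.22, 0.25 and 0.04 log2 in females of bulls 1, 2 and 3, and 0.41, 0.07 and 0.31 log2 in males of bulls 1, 2 and 3. With 3 arrays a group these SDs are themselves imprecise.

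**Figure D3:**
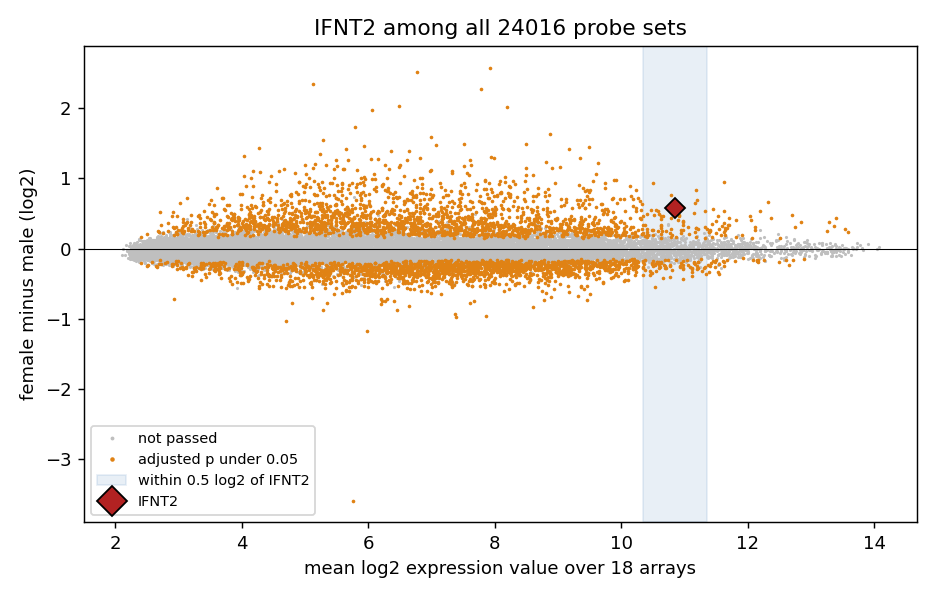
Female minus male difference (log2) of every probe set against its mean over the 18 arrays (log2). IFNT2 is marked at a mean of 10.85 and a difference of 0.59. At that brightness few probe sets reach so far above 0.

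The trophectoderm markers, unlike IFNT2, had about the same mean brightness on female and male arrays. Of 22 listed markers 16 had a probe set, while CDX2, GATA2, GATA3, TFAP2C and EOMES were among those not named on the array by this annotation. The mean of the 16 markers was 7.91 ± 0.12 log2 in females, from 7.66 to 8.07, and 7.98 ± 0.11 log2 in males, from 7.78 to 8.10. Among the markers 2 passed with higher and 4 with lower values in females, with a median difference of -0.01 log2. Over the brightest probe set of each of 9155 genes, 11.5% passed with higher and 9.31% with lower values in females, with a median of -0.01 log2. SSLP1, a secreted protein of the trophoblast, was 0.75 log2 higher in females. PAG11, a pregnancy-associated glycoprotein, was 0.48 log2 lower in females, at 3.78 ± 0.20 log2 in females and 4.26 ± 0.34 log2 in males. ASCL2, a transcription factor of trophoblast progenitors, was 0.42 log2 lower in females, at 4.68 ± 0.27 log2 in females and 5.10 ± 0.33 log2 in males. PAG2, a bright pregnancy-associated glycoprotein named after its values were seen, had the largest of the downward differences, -0.68 log2, at 8.98 ± 0.46 log2 in females and 9.66 ± 0.53 log2 in males (limma, adjusted p = 0.0103). By bull it was -0.46, -0.72 and -0.85 log2 in bulls 1, 2 and 3, and it did not pass without bull 2 or without bull 3 (adjusted p from 0.0681 to 0.08). PAG11 did not pass without bull 2 (limma, adjusted p = 0.11) and ASCL2 did not pass without bull 3 (adjusted p = 0.129).

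Set against these markers on its own array, IFNT2 separated the sexes fully. IFNT2 minus the marker mean averaged 3.23 ± 0.17 log2 in females, from 2.96 to 3.59, and 2.58 ± 0.24 log2 in males, from 2.09 to 2.85. The female array was the higher in all 81 pairs. How many probe sets separate the sexes fully in this measure was not counted. The difference between the sexes in this measure was 0.94, 0.52 and 0.50 log2 in bulls 1, 2 and 3. Averaged over the bulls it was 0.65 log2, and the marker mean alone differed by -0.07 log2, female minus male. Among the 16 markers, 2 passed with higher and 4 with lower values in females, so the measure is not free of sex differences of the markers. With the marker mean as a covariate, the sex difference of IFNT2 was 0.68 log2 (limma, adjusted p = 8.25e-05). The covariate was added after seeing the data. The marker mean is a summed brightness and not a count of trophectoderm cells, whose share was not measured.

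**Figure D4:**
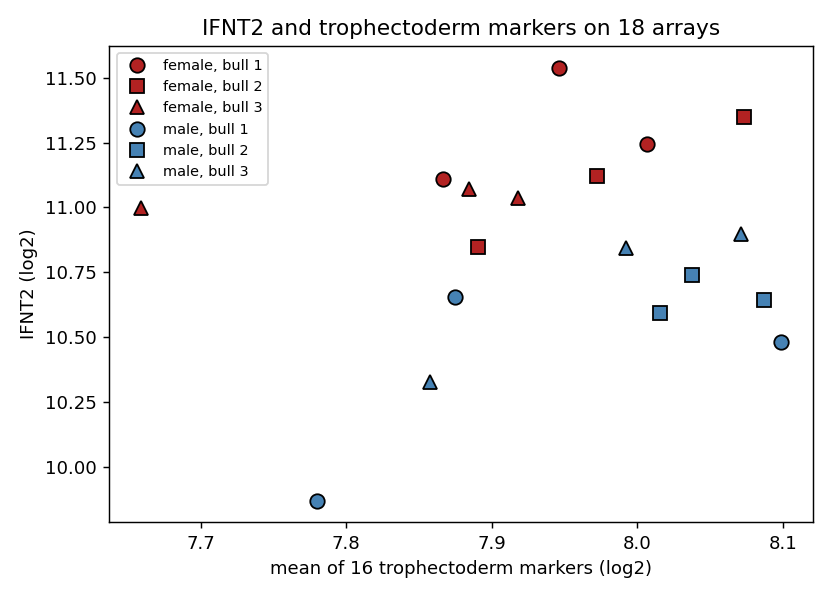
IFNT2 against the mean of 16 trophectoderm markers on each array, both in log2. Points are arrays, coloured by sex and shaped by bull. Marker means run from 7.66 to 8.10 log2 over the 18 arrays, and all female arrays but 1 lie above all male arrays, at 10.85 log2 in that array of females of bull 2 and 10.90 log2 in the highest array of males.

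Markers of the other cells of the embryo moved with sex in part. Of 5 measured inner cell mass markers, 2 passed with higher and 0 with lower values in females, with a median of 0.15 log2, where 11.5% of all genes were higher and 9.31% lower. These were STAT3, a transcription factor of cytokine signalling, by 0.28 log2, and SPP1, the secreted matrix protein osteopontin, by 0.56 log2. SPP1 did not pass without bull 1, without bull 3 or without moderation of the spread (adjusted p from 0.0547 to 0.156, limma and ordinary test). KLF4, a pluripotency factor, differed by 0.15 log2 without passing (limma, adjusted p = 0.132). The mean of the 5 inner cell mass markers ran from 9.45 to 9.70 log2 in females and from 9.24 to 9.50 log2 in males. Of 14 primitive endoderm markers, 1 was higher in females (RBP4, a retinol carrier, by 0.92 log2) and 2 were lower in females (P4HA2, a collagen prolyl hydroxylase, by -0.37 log2, and GATA4, an endoderm transcription factor, by -0.22 log2), with a median of 0.03 log2 over the 14. P4HA2 did not pass without bull 3 (limma, adjusted p = 0.0548), and GATA4 did not when any 1 of 9 arrays was left out (adjusted p from 0.0512 to 0.0707). Their mean ran from 7.89 to 8.03 log2 in females and from 7.82 to 8.04 log2 in males.

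Markers of cells outside the embryo had lower mean brightness, and their counts are to be read beside the 11.5% of all genes that were higher and the 9.31% that were lower in females. The mean of 17 cumulus and granulosa cell markers ran from 4.94 to 5.44 log2 in females and from 4.84 to 5.46 log2 in males, and 3 were higher and 1 lower in females. That of 10 blood cell markers ran from 4.49 to 5.0 log2 in females and from 4.47 to 4.85 log2 in males, with 3 higher and 1 lower in females. That of 7 oocyte markers ran from 4.73 to 5.46 log2 in females and from 4.74 to 5.16 log2 in males, with 1 higher and 0 lower in females. That of 9 sperm markers ran from 5.14 to 5.36 log2 in females and from 4.94 to 5.28 log2 in males, with 2 higher and 2 lower in females. The sperm genes named here were chosen after their values were seen, and the 2 higher ones differed by more than IFNT2 did. PRM1, the sperm nuclear protein protamine 1, averaged 6.65 ± 0.18 log2 in females and 4.92 ± 0.39 log2 in males, 1.73 log2 higher in females (limma, adjusted p = 1.0e-07), with 1.71, 1.71 and 1.77 log2 in bulls 1, 2 and 3. The 9 female arrays (6.35 to 6.89) lay above the 9 male arrays (4.29 to 5.65), which can hold for at most 3.34% of all probe sets. TNP1, a transition protein of sperm nuclei, averaged 6.57 ± 0.37 log2 in females and 5.68 ± 0.34 log2 in males, 0.88 log2 higher in females (limma, adjusted p = 0.000188). The r of PRM1 to IFNT2 was 0.75 over the 18 arrays and 0.19 over deviations from the group means. PRM2 and TNP2, 2 further nuclear proteins of sperm, differed by 0.03 and -0.07 log2 and did not pass (limma, adjusted p = 0.87 and 0.793). The 2 lower genes were ODF2, of the outer dense fibres of the sperm tail, by -0.25 log2, and SPA17, a sperm surface protein, by -0.28 log2 (limma, adjusted p = 0.00178 and 0.00215). At means of 9.34 and 7.86 log2 both were brighter than PRM1 and TNP1, and it was not measured if their signal came from sperm or from the embryo. The part of these markers in the IFNT2 difference was not tested.

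Among the transcription factors known to act on interferon tau genes or in the trophectoderm, JUN, FOS and JUNB, subunits of the AP-1 complex, were higher in females. Of 12 measured factors of 19 listed, 4 passed with higher and 1 with lower values in females, with a median of 0.01 log2. Set beside this, 11.5% of all genes were higher and 9.31% lower in females, with a median of -0.01 log2. JUN averaged 10.27 ± 0.13 log2 in females and 9.99 ± 0.14 log2 in males (n = 9 each), a difference of 0.27 log2 (limma, adjusted p = 0.00193). FOS, the usual partner of JUN in AP-1, averaged 9.43 ± 0.05 log2 in females and 9.15 ± 0.16 log2 in males. The FOS difference was 0.29 log2 (limma, adjusted p = 0.00217). All 9 female arrays (9.35 to 9.52) lay above all 9 male arrays (8.81 to 9.32), which can hold for at most 3.34% of all probe sets. JUNB averaged 8.50 ± 0.16 log2 in females and 8.21 ± 0.20 log2 in males, 0.29 log2 apart (limma, adjusted p = 0.00603), and did not pass without bull 3 (adjusted p = 0.0704). The other AP-1 subunits measured, JUND, FOSL1 and FOSL2, differed by 0.04, -0.09 and -0.06 log2 and did not pass (limma, adjusted p = 0.719, 0.433 and 0.689). The JUN difference was close in size in the 3 bulls, at 0.28, 0.25 and 0.29 log2 in bulls 1, 2 and 3. JUN had 5 probe sets, of which 3 passed, and FOS had 2, of which 1 passed.

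ETS2, the factor known to drive interferon tau promoters in cattle, did not pass. It averaged 7.45 ± 0.16 log2 in females and 7.44 ± 0.14 log2 in males, a difference of 0.01 log2 (limma, adjusted p = 0.934), whose sign turned in 3 of 15 other analyses and in 5 of 18 with an array left out. DLX3, a homeobox factor of the trophoblast, averaged 4.98 ± 0.29 log2 in females and 4.65 ± 0.22 log2 in males. Its difference of 0.33 log2 passed (limma, adjusted p = 0.0359), but not when any 1 of 10 arrays was left out (adjusted p from 0.0517 to 0.0817). By bull it was 0.57, 0.40 and 0.02 log2 in bulls 1, 2 and 3. TFAP2A, a trophectoderm factor of the AP-2 family, was lower in females, at 5.67 ± 0.34 log2 in females and 6.21 ± 0.43 log2 in males. It too passed narrowly (limma, adjusted p = 0.0319), and leaving out any 1 of 7 arrays took it above the threshold (adjusted p from 0.0568 to 0.0749). CDX2, the factor that specifies trophectoderm, was not named on the array by this annotation.

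Growth factor and kinase genes that act on the trophectoderm were examined next. Of 12 measured genes of 15 listed, 1 (8.33%) passed with higher and 0 with lower values in females, with a median of -0.01 log2. This share is near the 11.5% of all genes that were higher in females, while 9.31% of all genes were lower. PRKCD, a protein kinase C, differed by 0.16 log2 (limma, adjusted p = 0.0484) and did not pass when any 1 of 14 arrays was left out (adjusted p from 0.0534 to 0.102) or without the 4 arrays of wide spread. FGF2, a growth factor of the uterus known to raise interferon tau in bovine trophectoderm, differed by -0.06 log2 (limma, adjusted p = 0.623). Its probe set was dim, at a mean of 2.96 log2. The other FGF2 probe set, dim too at 2.70 log2, differed by 0.22 log2 (limma, adjusted p = 0.132). The receptor FGFR3 differed by -0.11 log2 and the GM-CSF receptor subunit CSF2RB by -0.10 log2, and neither passed (limma, adjusted p = 0.456 and 0.55). CSF2RB was dim, at a mean of 3.03 log2. IGF1R, the receptor of insulin-like growth factor 1, differed by 0.07 log2 (limma, adjusted p = 0.595).

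In the embryo's own type I interferon receptor and signalling genes, 3 of 10 measured genes passed with higher and 0 with lower values in females, with a median of 0.13 log2. Over all genes 11.5% passed with higher and 9.31% with lower values in females, with a median of -0.01 log2. STAT3 averaged 9.41 ± 0.10 log2 in females and 9.13 ± 0.12 log2 in males (limma, adjusted p = 0.00205). It is on the inner cell mass list as well, and it did not pass without bull 2 (adjusted p = 0.123). IRF9, the DNA-binding subunit of the ISGF3 complex, averaged 6.84 ± 0.15 log2 in females and 6.52 ± 0.27 log2 in males, 0.32 log2 apart (limma, adjusted p = 0.00994). It did not pass without bull 1 or without bull 3 (adjusted p from 0.0583 to 0.167). USP18, which removes ISG15 from proteins and dampens the receptor, differed by 0.26 log2 (limma, adjusted p = 0.0414). The call was lost when any 1 of 12 arrays was left out (adjusted p from 0.0505 to 0.0914), and of its 4 probe sets 1 passed.

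Both receptor chains were dim and did not pass. IFNAR1 averaged 2.92 ± 0.09 log2 in females and 2.84 ± 0.15 log2 in males, and IFNAR2 averaged 3.94 ± 0.12 log2 in females and 4.0 ± 0.12 log2 in males. PTPN6, a phosphatase of cytokine receptors, differed by 0.25 log2 and STAT2, a subunit of ISGF3, by 0.10 log2, and neither passed (limma, adjusted p = 0.185 and 0.327). PTPN6 passed in 3 of 15 other analyses, among them that without the 4 arrays of wide spread (0.39 log2, adjusted p = 0.00639), and in 1 of 18 with an array left out.

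Interferon-stimulated genes are genes that interferon tau raises in the uterus. Of 31 measured in the embryo of 47 listed, 4 (12.9%) passed with higher and 1 (3.23%) with lower values in females, with a median of 0.00 log2. Over all 9155 genes these shares were 11.5% and 9.31%, so the share of higher genes was near that of the whole array. LGALS3BP, a secreted glycoprotein that binds galectin 3, averaged 7.48 ± 0.12 log2 in females and 6.90 ± 0.22 log2 in males, 0.58 log2 or 1.49-fold apart (limma, adjusted p = 3.99e-05). Its second probe set differed by 1.10 log2. IRF7, a transcription factor of type I interferon genes, averaged 9.32 ± 0.14 log2 in females and 8.95 ± 0.14 log2 in males (limma, adjusted p = 0.000519). All 9 female arrays (9.144 to 9.572) lay above all 9 male arrays (8.677 to 9.136), by a very narrow margin. This can hold for at most 3.34% of all probe sets. TRIM21, an antibody receptor of the cytosol, was 0.36 log2 higher and IFI35 0.26 log2 higher in females (limma, adjusted p = 0.00125 and 0.02). IFI35 did not pass without bull 2, without bull 3 or with the trophectoderm marker mean as a covariate (adjusted p from 0.0607 to 0.139). PSMB8, a subunit of the immunoproteasome, was 0.26 log2 lower in females (limma, adjusted p = 0.00389), and did not pass without bull 1 (adjusted p = 0.0659).

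The classical targets ISG15 and MX1 did not pass in the fit of all 18 arrays. ISG15, the ubiquitin-like modifier by which pregnancy is read in the uterus and blood of cattle, ran from 4.65 to 6.38 log2 with a median of 5.51 in females, and from 4.50 to 6.79 log2 with a median of 5.52 in males (limma, adjusted p = 0.629). MX1, an antiviral GTPase named here after its values were seen, ran from 5.58 to 7.06 log2 with a median of 6.46 in females, and from 4.64 to 6.88 log2 with a median of 5.49 in males (limma, adjusted p = 0.0587). Its difference of 0.64 log2 lay close to the threshold. It passed in 8 of 15 other analyses, the one without the 4 arrays of wide spread included, and in 4 of 18 with an array left out (adjusted p down to 0.00619). The sexes overlapped widely in both genes.

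**Figure D5:**
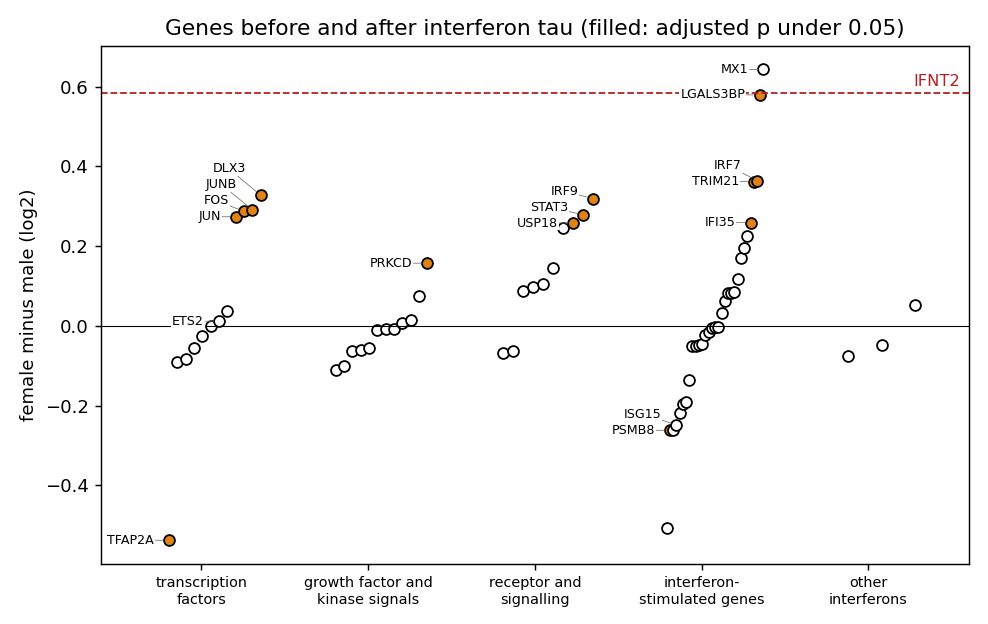
Female minus male difference (log2) of the measured genes of 5 lists around interferon tau. Each point is a gene's brightest probe set, filled points passed at an adjusted p under 0.05 in limma, and the dashed line marks IFNT2 at 0.59. The median is 0.13 for the receptor and signalling genes and from -0.05 to 0.01 for the other lists. Among the transcription factors, JUN, FOS, JUNB and DLX3 lie above 0 and TFAP2A below it. The interferon-stimulated genes run from -0.51 for IFI6 to 0.64 for MX1, and neither of these passed.

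Other interferons did not pass, and IFNB1 and IFNG were dim. IFNAC, an interferon alpha gene of middling brightness (percentile 50.6), averaged 5.44 ± 0.23 log2 in females and 5.39 ± 0.18 log2 in males. IFNB1, interferon beta, averaged 2.88 ± 0.16 log2 in females and 2.95 ± 0.27 log2 in males. IFNG, interferon gamma, averaged 2.69 ± 0.16 log2 in females and 2.74 ± 0.25 log2 in males. Adjusted p-values in limma ran from 0.702 to 0.785, and 3 of 3 listed genes were measured.

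The genes whose values ran most like those of IFNT2 were ranked by Pearson's r over the 18 arrays, a description in which arrays of a sex and bull share their group. The top of the ranking was not stable. An r of at least 0.8 was reached by 71 other probe sets, and 0 of the 5 highest genes stayed among the 5 highest by Spearman's rho or without 2 arrays. EFHD2, a calcium-binding protein, had the highest r of 0.90 (Spearman's rho 0.88), and 0.84 without the 2 arrays farthest from the median of IFNT2. TKDP1, a trophoblast Kunitz domain protein that ruminant trophoblast secretes, followed at 0.88 (rho 0.87). It averaged 6.45 ± 0.41 log2 in females and 5.43 ± 0.34 log2 in males, 1.03 log2 higher in females (limma, adjusted p = 3.12e-05), and its other, brighter probe set differed by 0.51 log2 and had r = 0.62. ELL2, a transcription elongation factor, had r = 0.88 and a female minus male difference of 0.95 log2. OAT, ornithine aminotransferase, and the X-linked TCEAL4 had r = 0.88 and 0.87 and were 0.27 and 0.73 log2 higher in females. OAT did not pass without bull 2 or without bull 3 (limma, adjusted p from 0.0585 to 0.0703).

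The 5 named genes with the lowest r were ALG11, a mannosyltransferase of N-glycan synthesis (-0.91), CHCHD4, which imports proteins into mitochondria (-0.89), CDC6, a replication licensing factor (-0.88), ABCD4, a transporter of vitamin B12 (-0.88), and COG4, a Golgi tethering subunit (-0.87). All 5 passed with lower values in females, from -0.21 log2 for CDC6 to -0.50 log2 for ABCD4. CDC6 lost its call when any 1 of 8 arrays was left out (limma, adjusted p from 0.0515 to 0.0642), CHCHD4 in 3 of 3 analyses without a bull and with bull as the replicate (0.0511 to 0.137), and COG4 without bull 2 (0.0564). An r of at most -0.8 was reached by 131 probe sets, and 0 of these 5 genes stayed among the 5 lowest by rho or without 2 arrays. Since IFNT2 itself differs by sex, an r over all arrays partly restates the sex difference.

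Deviations from the 6 group means carry no sex or bull difference. Over these, ANXA1, the lipid-binding protein annexin A1, was most like IFNT2 with r = 0.89 (rho 0.85), and 0.82 without the 2 arrays farthest from the median. It lies on chromosome 8 too and averaged 11.92 ± 0.13 log2 in females and 11.48 ± 0.17 log2 in males, 0.44 log2 higher in females (limma, adjusted p = 8.97e-05). GABARAP, an autophagy protein, and CHRNE, a subunit of the acetylcholine receptor, had r = 0.87 and 0.86. FHL2, a LIM domain protein, and IFI30, a thiol reductase of lysosomes, both had r = 0.86. Without the 2 farthest arrays, the r of GABARAP, CHRNE, FHL2 and IFI30 fell to values from 0.70 to 0.77. Their sex differences, from 0.10 to 0.20 log2, did not pass (limma, adjusted p from 0.302 to 0.534). This ranking was not stable either: 2 of the 5 highest genes stayed by rho and 3 without the 2 farthest arrays. Over deviations 40 other probe sets had an r of at least 0.8 and 198 an r of at most -0.8. At the other end, FZD4, a Wnt receptor, LUC7L, a splicing factor, CHD2, a chromatin remodeller, PDE1A, a cyclic nucleotide phosphodiesterase, and LCAT, an enzyme of cholesterol esterification, had r from -0.91 to -0.89. The FZD4 and PDE1A probe sets ranked here were very dim, at 3.30 and 2.38 log2, and the other FZD4 probe set, at 7.33 log2, differed by 0.11 log2. Among the 5, CHD2 was lower in females, by -0.29 log2, and lost its call without bull 1 and without bull 3 (limma, adjusted p from 0.0804 to 0.104), while the other four did not pass (adjusted p from 0.255 to 0.999).

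Among the trophectoderm markers the r of such deviations to IFNT2 had a median of 0.35, with LGALS3, galectin 3, the highest at 0.86 and TEAD4, a trophectoderm factor, the lowest at -0.68. Over the 5 inner cell mass markers the median was -0.29 and 0 of them had an r above 0. Over 9154 other genes the median was -0.18. The arrays were normalized together and include the 4 arrays of wide spread. Replicate 2 of the males of bull 1 and replicate 3 of the males of bull 3 were the 2 farthest in deviations. Both are of wide spread. Without these 2, the 5 genes most like IFNT2 over deviations had r from 0.70 to 0.82, against 0.86 to 0.89 with all arrays. The part of all 4 arrays in the r values was not tested.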

How the data were processed

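Total RNA of each pool was amplified and hybridised to 1 array, per the labels' protocols. The authors deposited a log2 value for each probe set. RMA and Partek 6.4 appear in the submitters' processing notes, with no role given for either. RMA draws the arrays' distributions together, so a shift of all transcripts cannot be seen, and it can understate differences of dim ones. Of 24128 probe sets, 112 controls were left out. Of the rest, 13292 have 1 gene in GEO's platform annotation, 86 several and 10638 none, and 13263 matched ARS-UCD2.0 by gene number.

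A linear model of the 6 group means was fitted (limma 3.58.1 with R 4.3.3), and p-values were adjusted by Benjamini-Hochberg over all 24016 probe sets with a threshold of 0.05. The brightest probe set stood for a gene in the lists, and all named probe sets were ranked by r. The members, lists and tests were chosen with earlier results of these data known. Genes were named by rule: per pathway list the 5 of smallest p, per embryo marker list 3, the 5 highest and 5 lowest r each way, and IFNT2, XIST, ETS2, CDX2, DLX3, IFNAR1, IFNAR2 and ISG15. KRT18, POU5F1, JUND, FOSL1, FOSL2, MX1, PAG2, PRM1, TNP1, PRM2, TNP2, ODF2, SPA17, IFI6, IFI27, IFIT2, RSAD2, LGALS3 and TEAD4 were named after their values were seen. Alternatives were an additive model, no moderation, the brighter probe sets, quantile normalization, median centring, an intensity trend, array weights, a replicate block, and leaving out arrays or bulls. Leaving out the 4 arrays of wide spread and both covariates were chosen after seeing the data. The fit was tested on simulated data.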

Additional observations from a re-analysis of the deposited data

Results flagged for a closer look

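On replicate 2 of the males of bull 1, IFNT2 stood at percentile 92.4 of its array, apart from the other 8 male arrays, the next lowest of which was at 95.2. On replicate 3 of the females of bull 3, the mean of the trophectoderm markers was 7.66 log2, apart from the other 8 female arrays, which ran from 7.87 to 8.07. In both cases 1 array lay far from the rest of its sex relative to the range of all 9. A total of 10 sets of arrays were examined in this way, and chance singles out about 1 in 20.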

How the results depend on the processing

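The sex difference of IFNT2 kept its direction and passed in all 15 other analyses, from 0.40 log2 without bull 1 to 0.70 log2 without bull 3 (limma, adjusted p from 8.25e-05 to 0.025). It also passed with each array left out, from 0.51 to 0.64 log2, the lowest without replicate 2 of the males of bull 1. In bull 1 it was 0.73 to 1.12 log2 with an array left out, in bull 2 0.33 to 0.58 and in bull 3 0.17 to 0.45. In bull 2 it passed with array weights (0.48 log2, limma, adjusted p = 0.0442). The numbers in the titles did not pair the arrays: deviations of same-numbered arrays had a median r of 0.00 (45 pairs, -0.23 to 0.16) and those of others 0.01. With a replicate block by that number, the IFNT2 difference was 0.59 log2 (limma, adjusted p = 0.000301) and 3527 probe sets passed for sex instead of 3743. Without bull 2 2044 passed, and without bull 3 2182. Median centring gave 1851 higher and 2385 lower in females.

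The sire differences turned sign. With array weights bull 2 minus bull 1 was -0.052 and bull 3 minus bull 2 was 0.065 log2. With an array left out, bull 2 minus bull 1 ran from -0.0505 to 0.15, bull 3 minus bull 1 from -0.0706 to 0.14, bull 3 minus bull 2 from -0.085 to 0.0702, female bull 3 minus female bull 2 from -0.20 to 0.051, and male bull 3 minus male bull 2 from -0.073 to 0.21 log2. Small differences of named genes also did: ETS2 (-0.0058 with median centring, -0.095 without bull 1, -0.0057 without the wide-spread arrays, -0.016 to 0.042 with an array left out), FZD4 (0.019 with quantile normalization, 0.030 with array weights, 0.0092 without bull 1, 0.037 without the wide-spread arrays, -0.017 to 0.033 with an array left out) and LCAT (0.070 with array weights, 0.10 without the wide-spread arrays, -0.13 to 0.031 with an array left out). Without the wide-spread arrays CSF2RB was 0.023, IFNB1 0.012 and GABARAP -0.018, and with the marker mean as covariate IGF1R was -0.0021. With an array left out IFNAC ran from -0.0059 to 0.11, IFNB1 from -0.12 to 0.012 and IFNG from -0.11 to 0.022. The cause was not tested in any of these.

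In list counts, growth factor and kinase genes had 0 higher in females with all probe sets of a gene averaged and without the wide-spread arrays. Interferon-stimulated genes had 2 lower in females, and primitive endoderm 2 higher and 1 lower, both with array weights and without the wide-spread arrays. Trophectoderm markers had 1 higher without the wide-spread arrays, and cumulus markers 1 higher and 0 lower with probe sets averaged. Of the 5 genes of highest and lowest r over arrays, 0 and 0 were shared with the 5 by rho, and 0 and 0 with the 5 without the 2 farthest arrays. Over deviations 2 and 2 were shared by rho, and 3 and 1 without those arrays. Among probe sets with 1 listed gene IFNT2 averaged percentile 95.9 in females and 93.5 in males. Relative to the 3 measured of KRT8, KRT18, GATA2, GATA3, TFAP2A, TFAP2C and CDX2, it averaged 2.65 in females and 1.89 log2 in males. TFAP2A, 1 of these 3, itself differed between the sexes by -0.54 log2, while KRT8 and KRT18 differed by 0.03 and -0.0035 log2.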

Other observations

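ISG15, MX1, IFI6 and IFI27, interferon-stimulated genes singled out after their values were seen, varied widely among pools of the same sex and bull. The residual SD was 0.72 log2 for ISG15, 0.57 for MX1, 0.89 for IFI6 and 0.66 for IFI27. For IFI6, 0 of 2912 probe sets within 0.5 log2 of its mean had a larger one, and for ISG15 3 of 2786 did. Their deviations from the group means ran together, with r to ISG15 of 0.92 for MX1, 0.91 for IFI6 and 0.91 for IFI27 over the 18 arrays. The genes examined beside them did not all follow: r to ISG15 was 0.47 for IFIT2, 0.37 for IRF7, 0.07 for IFI30 and 0.03 for RSAD2. RSAD2 was dim and varied little, with a residual SD of 0.12 log2 that 4300 of 4976 probe sets of like brightness exceeded. The r of the deviations to those of IFNT2 was -0.09 for ISG15, 0.09 for MX1, -0.04 for IFI6 and -0.11 for IFI27. These are descriptions without a test, and the embryos of a pool were not measured one by one.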
